A study of Mus musculus with 6 samples.

Results

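Messenger RNA of the proteasome subunit genes was followed in brain leukocytes of naive mice and of mice studied early after a stroke. The genes were chosen by name: all symbols of the deposited gene list that begin with Psma, Psmb, Psmc, Psmd, Psme, Psmf or Psmg and a digit, apart from Psmb8 and Psmb9, with at least 10 UMIs (unique molecular identifiers, each standing for 1 captured mRNA molecule) over the 6 libraries. Of 48 matching symbols 47 met the minimum, out of 16396 genes that met it among the 31053 in the files. Psmb11, the thymus-specific beta subunit, had 5 UMIs and was left out. The 47 genes hold 7 alpha subunits, 3 catalytic and 4 structural beta subunits, the inducible catalytic subunit Psmb10, 6 base ATPases, 3 other base subunits, 8 lid subunits, 5 activator genes, the inhibitor gene Psmf1, 7 assembly chaperones and the testis-type subunit Psma8. Psmc3ip also matches the pattern, but it encodes a recombination cofactor and no subunit, so sums over the family are given for the other 46.

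The libraries came from C57BL/6 mice of 2 genotypes: Cd300a-fl/fl, written fl/fl, and Cd300a-fl/fl Lyz2-cre, written Lyz2-cre. All mice carried the floxed Cd300a allele, and Cre at the Lyz2 locus acts in myeloid cells. Mice were naive or were taken 1 h or 3 h after reperfusion that followed 60 min of filament occlusion of the middle cerebral artery (MCAO); the design text calls the naive time 0 h. Living CD45+ cells were sorted after a Percoll gradient, with 3 brains pooled per library and 1 library per genotype and time. The sources used here give no age. The 2 libraries of a time therefore differ in genotype, and p-values rest on departures from an additive model of time and genotype, which mix the spread between pools with any genotype-specific time course.

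The proteasome is the large protease of cytosol and nucleus that degrades proteins tagged with ubiquitin. Its 20S core is a barrel of alpha and beta rings with the proteolytic sites on beta subunits inside, and the 19S particle on its ends unfolds and feeds substrates through a ring of ATPases, while its lid removes ubiquitin. Immune cells can exchange the catalytic subunits for inducible ones (Psmb8, Psmb9 and Psmb10). They can also cap the core with the PA28 activator of Psme1 and Psme2, which serves the making of peptides for MHC class I. When proteasomes are impaired, the factor NRF1 acts on antioxidant response elements in the promoters of subunit genes.

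Total counts ran from 35479437 to 48478866 UMIs per library, with a median of 3902 to 5225 UMIs per cell, and 47077 cells were used. Across the 15 pairs of libraries, 12 to 30 cell barcodes were shared per pair. Clusters were named from marker genes, with all variable genes except the proteasome genes used for clustering: 11 microglia-like, 2 monocyte-like and 3 neutrophil-like clusters, and T, NK and B cell-like clusters pooled as lymphocyte-like. Classes held 4743 to 7316 microglia-like, 109 to 815 monocyte-like, 150 to 1057 neutrophil-like and 332 to 666 lymphocyte-like cells per library. Lyz2, into which Cre was placed, checks the labels: it stood at 19469 to 25604 CPM in fl/fl and 26.6 to 98.8 CPM in Lyz2-cre monocyte-like cells (CPM, UMIs of the gene per 1000000 UMIs of the class in that library). Cd300a, the targeted gene, stood at 128 to 256 CPM in fl/fl and 9.74 to 16.1 CPM in Lyz2-cre neutrophil-like cells, at 181 to 469 against 89.2 to 225 CPM in monocyte-like cells, at 172 to 212 against 137 to 171 CPM in microglia-like cells and at 4.04 to 10.7 against 7.53 to 10.6 CPM in lymphocyte-like cells. These are 3′ counts, and the sources used here do not say which exons are deleted.

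Promoters were read for 39 of the 47 genes from RefSeq's table on GRCm38.p6, as the 250 bases before the transcript start. Where several starts were listed, the one nearest the annotated gene start was read for the members. For the shares over all promoters the first one listed for each gene was read. The 6 below are shown because they hold a match to 1 of the 6 motifs searched on both strands and because their genes carry several of the results that follow; capitals mark the match. In Psmb5, Psmb6, Psmc6 and Psmd12 it is the antioxidant response element (TGACNNNGC), and in Psme4 and Psmc1 it is an ETS site (CCGGAAG).
Psmb5 promoter, chr14:54617996-54618245, reverse strand: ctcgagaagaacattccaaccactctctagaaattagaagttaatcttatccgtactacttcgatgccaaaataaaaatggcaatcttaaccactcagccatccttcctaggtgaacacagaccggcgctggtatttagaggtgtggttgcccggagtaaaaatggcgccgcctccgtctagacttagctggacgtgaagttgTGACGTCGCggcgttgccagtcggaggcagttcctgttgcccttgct
Psmb6 promoter, chr11:70525107-70525356, forward strand: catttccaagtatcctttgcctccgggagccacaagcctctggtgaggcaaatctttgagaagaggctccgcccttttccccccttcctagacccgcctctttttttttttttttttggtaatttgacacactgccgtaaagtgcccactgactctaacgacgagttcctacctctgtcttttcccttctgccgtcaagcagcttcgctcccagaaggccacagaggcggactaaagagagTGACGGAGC
Psmc6 promoter, chr14:45329574-45329823, forward strand: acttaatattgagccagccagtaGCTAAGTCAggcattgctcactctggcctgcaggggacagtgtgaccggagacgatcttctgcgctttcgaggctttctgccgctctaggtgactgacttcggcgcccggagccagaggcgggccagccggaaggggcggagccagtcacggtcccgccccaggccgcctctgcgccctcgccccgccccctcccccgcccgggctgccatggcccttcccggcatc
Psmd12 promoter, chr11:107479278-107479527, forward strand: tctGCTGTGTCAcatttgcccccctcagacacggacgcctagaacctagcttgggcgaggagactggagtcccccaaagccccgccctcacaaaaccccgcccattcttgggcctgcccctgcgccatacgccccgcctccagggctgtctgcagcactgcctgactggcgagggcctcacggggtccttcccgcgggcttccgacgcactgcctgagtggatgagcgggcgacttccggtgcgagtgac
Psme4 promoter, chr11:30771525-30771774, forward strand: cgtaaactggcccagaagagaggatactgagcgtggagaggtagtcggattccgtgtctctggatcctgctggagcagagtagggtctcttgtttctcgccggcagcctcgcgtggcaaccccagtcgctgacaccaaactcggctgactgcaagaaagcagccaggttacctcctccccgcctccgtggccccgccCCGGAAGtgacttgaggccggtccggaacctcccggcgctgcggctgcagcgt
Psmc1 promoter, chr12:100109952-100110201, forward strand: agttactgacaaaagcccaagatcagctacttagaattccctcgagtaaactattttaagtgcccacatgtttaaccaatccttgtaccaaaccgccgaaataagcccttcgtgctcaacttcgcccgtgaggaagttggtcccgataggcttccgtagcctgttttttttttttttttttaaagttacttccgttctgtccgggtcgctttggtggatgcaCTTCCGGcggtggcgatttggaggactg
The antioxidant response element was found in 5 of the 39 promoters (12.8%; the fifth gene is Psmd9) against 10.1% of all 27025 promoters of that length. The ETS site, bound by factors of the ETS family, was found in 12 (30.8%) against 7.05% of all. Psmc3ip, which encodes no subunit, is among the 12. The heat shock element in its core form (GAANNTTC) was found in 2 (5.13%, against 6.78% of all), the interferon-stimulated response element in 3 (7.69% against 3.04%) and the CCAAT box in 13 (33.3% against 34.5%). Psmb5 holds both an antioxidant response element and a heat shock element in this window, and Psmf1 holds the other heat shock element. Psmc6 and Psmd12 hold an ETS site beside the antioxidant response element.

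The summed level of the 46 genes was lower at 3 h than at the earlier times in neutrophil-like cells. There the naive libraries stood at 2318 (fl/fl) and 2239 CPM (Lyz2-cre), those of 1 h at 2285 and 2191 CPM, and those of 3 h at 1432 and 1557 CPM. Both 3 h libraries lay below the other 4. In microglia-like cells the naive sums were 3709 and 3747 CPM, the 1 h sums 3954 and 4130 CPM and the 3 h sums 3782 and 3847 CPM, so the 1 h libraries were the highest pair. Monocyte-like cells had naive sums of 5810 and 5769 CPM, 1 h sums of 5681 and 6812 CPM and 3 h sums of 5962 and 6193 CPM. The Lyz2-cre 1 h library was the highest of these, and the fl/fl 1 h library the lowest. Lymphocyte-like cells had naive sums of 5597 and 5045 CPM, 1 h sums of 4927 and 5114 CPM and 3 h sums of 4810 and 4763 CPM, with both 3 h libraries below the others. These sums carry no test; in each class a lower value can come from less mRNA of these genes or from more mRNA of others in the same cells, and these cannot be told apart.

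**Figure D1:**
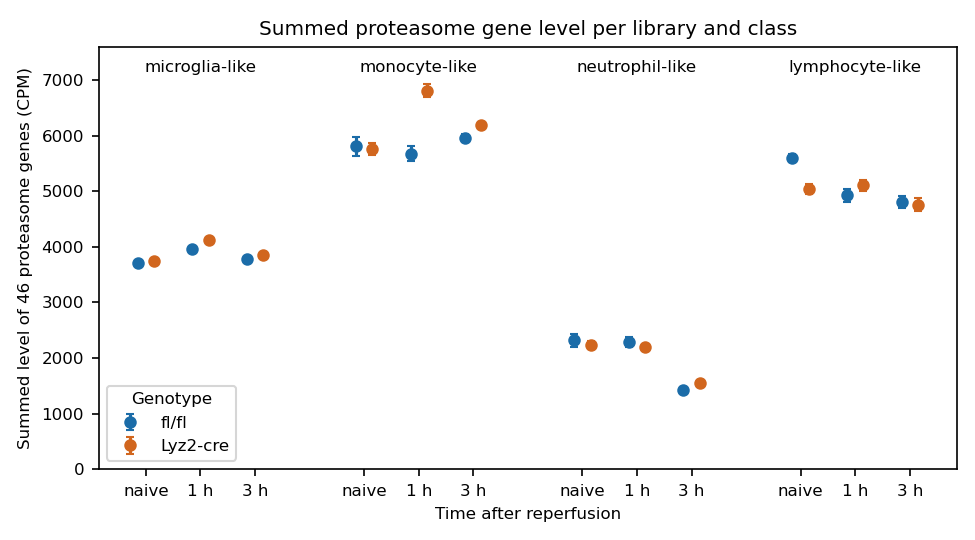
Summed level of the 46 proteasome genes (y axis, CPM) in each class and library, with time after reperfusion on the x axis, blue for fl/fl and orange for Lyz2-cre, and bars for exact 95% binomial intervals (counting error only). The 2 neutrophil-like 3 h libraries lie at 1432 and 1557 CPM, below the 4 earlier ones at 2191 to 2318 CPM.

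Throughout, values in CPM are given for the fl/fl library first and the Lyz2-cre library second. Changes are log2 fold changes from edgeR's quasi-likelihood test on counts summed per library and class, and a gene is said to have risen or fallen where its Benjamini-Hochberg adjusted p over all genes of the class was under 0.05. All 47 genes entered the test in microglia-like cells. Monocyte-like cells lacked the counts for Psma8 and Psmc3ip, neutrophil-like cells for these 2 and for Psmg1 and Psmg2, and lymphocyte-like cells for Psma8. Psma8 stayed at or below 3.90 CPM and Psmc3ip at or below 8.63 CPM in every library and class, and neither changed in a test.

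In microglia-like cells at 1 h, 14 of the 47 genes rose against naive and none fell, among them 3 of the 4 structural and 2 of the 3 catalytic beta subunits, both PA28 genes and the inhibitor gene Psmf1. Of all 12810 genes tested, 14.0% were called higher and 12.8% lower. The median change of the 47 was 0.15 on the log2 scale, against -0.01 for all genes. Psmb3, a structural beta subunit, had the largest change. It had naive levels of 100.2 and 96.1 CPM, 1 h levels of 139 and 154 CPM and 3 h levels of 102 and 112 CPM (log2 fold change 0.68 ± 0.09 (SE), adjusted p = 0.000656 at 1 h). The 1 h libraries did not overlap the others. The alpha subunit Psma6 had naive levels of 79.5 and 80.7 CPM, 1 h levels of 104 and 107 CPM and 3 h levels of 98.5 and 106 CPM, high at both 1 h and 3 h (log2 fold change 0.50 ± 0.08 (SE), adjusted p = 0.00179 at 1 h; log2 fold change 0.43 ± 0.08 (SE), adjusted p = 0.00142 at 3 h).

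Of the catalytic beta subunits in microglia-like cells, Psmb5, the chymotrypsin-like one, had naive levels of 114 and 116 CPM, 1 h levels of 130.4 and 131 CPM and 3 h levels of 105 and 114 CPM. It rose at 1 h (log2 fold change 0.29 ± 0.07 (SE), adjusted p = 0.0191) and fell from 1 h to 3 h (log2 fold change -0.28). Psmb6, the caspase-like subunit, had naive levels of 123 and 123 CPM, 1 h levels of 131 and 137 CPM and 3 h levels of 129 and 134 CPM. Its rise at 1 h was small (log2 fold change 0.23 ± 0.08 (SE), adjusted p = 0.0492), and both 1 h libraries lay above both naive ones. Psmb7, the trypsin-like subunit, had naive levels of 49.6 and 49.1 CPM, 1 h levels of 45.6 and 48.2 CPM and 3 h levels of 58.3 and 57.3 CPM. Its high libraries were those of 3 h, where it rose against naive (log2 fold change 0.31 ± 0.09 (SE), adjusted p = 0.0141) and against 1 h (log2 fold change 0.28). Psmb5 and Psmb6 were thus called against naive at 1 h, and Psmb7 at 3 h. Whether their time courses differ was not tested. Psmb10, the inducible counterpart of Psmb7, had naive levels of 101 and 97.7 CPM, 1 h levels of 98.6 and 107 CPM and 3 h levels of 80.3 and 82.6 CPM. It fell from 1 h to 3 h (log2 fold change -0.36 ± 0.08 (SE), adjusted p = 0.00645), with the 3 h libraries lowest.

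The other structural beta subunits called at 1 h in microglia-like cells were Psmb2 (log2 fold change 0.37) and Psmb1 (0.34). Both fell again from 1 h to 3 h (-0.49 and -0.26), as did Psmb3 (-0.49). Psmb4, the remaining structural subunit, had naive levels of 88.0 and 83.5 CPM, 1 h levels of 91.1 and 95.3 CPM and 3 h levels of 99.1 and 110.5 CPM and rose at 3 h against naive (log2 fold change 0.37 ± 0.08 (SE), adjusted p = 0.00524). The alpha subunits Psma3 and Psma5 were also higher at 3 h than in naive, at log2 fold changes of 0.33 and 0.21. Psma2 and Psma7 fell from 1 h to 3 h (log2 fold changes -0.21 and -0.22), and Psma1 and Psma4 were called in no comparison of microglia-like cells.

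At 3 h, 11 of the 47 genes had risen in microglia-like cells and 4 had fallen against naive, where 24.4% of all genes were called higher and 23.2% lower. The members' median change was 0.07, and that of all genes -0.02. Against 1 h, 5 had risen and 16 fallen, with 25.3% of all genes called higher and 22.1% lower and medians of -0.07 for the members and 0.03 for all genes. Against naive, the share of members called higher was near that of all genes, and the share called lower was below it. Of the 8 lid subunits, 4 rose at 3 h. Psmd12, a lid subunit of the scaffold type, had naive levels of 95.5 and 94.1 CPM, 1 h levels of 101 and 91.7 CPM and 3 h levels of 146 and 124 CPM (log2 fold change 0.58 ± 0.09 (SE), adjusted p = 0.000592). Both 3 h libraries lay above the other 4. Psmd7, the partner of the deubiquitinase in the lid, had naive levels of 119.7 and 127 CPM, 1 h levels of 119 and 115 CPM and 3 h levels of 169 and 148 CPM (log2 fold change 0.44 ± 0.09 (SE), adjusted p = 0.00353). Psmd8 and Psmd11 rose by 0.40 and 0.36. Psmd14, the lid deubiquitinase itself, had naive levels of 46.8 and 46.8 CPM, 1 h levels of 39.4 and 45.1 CPM and 3 h levels of 45.8 and 42.0 CPM, without a call. Both naive libraries were the highest, and those of 1 h and 3 h overlapped. Psmd13 and Psmd3 fell from 1 h to 3 h (log2 fold changes -0.43 and -0.39), and Psmd6 was not called at any time.

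Among the 9 base subunits in microglia-like cells, the ATPase Psmc6 was the only one higher at 3 h than in naive. It had naive levels of 80.9 and 82.1 CPM, 1 h levels of 77.2 and 81.7 CPM and 3 h levels of 93.2 and 94.0 CPM (log2 fold change 0.28 ± 0.08 (SE), adjusted p = 0.0166), with both 3 h libraries on top. Psmc1 and Psmc5, also ATPases, rose at 1 h (log2 fold changes 0.32 and 0.30). Psmc1 then fell to the lowest pair of values at 3 h: it had naive levels of 56.3 and 57.8 CPM, 1 h levels of 65.4 and 67.0 CPM and 3 h levels of 46.8 and 49.3 CPM (log2 fold change -0.49 ± 0.08 (SE), adjusted p = 0.00086 against 1 h). Psmc3 fell from 1 h to 3 h by the same test (log2 fold change -0.24). Psmc2, Psmc4 and the non-ATPase subunits Psmd1, Psmd2 and Psmd4, of which Psmd4 is a ubiquitin receptor, were not called.

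Of the activators in microglia-like cells, 1 rose and 2 fell at 3 h against naive, and the inhibitor fell. Psme4, which encodes the PA200 activator of the nucleus, had naive levels of 27.4 and 30.9 CPM, 1 h levels of 25.3 and 24.6 CPM and 3 h levels of 38.3 and 41.3 CPM (log2 fold change 0.53 ± 0.09 (SE), adjusted p = 0.00108 against naive; log2 fold change 0.65 ± 0.09 (SE), adjusted p = 0.000387 against 1 h). Both 3 h libraries were above all others. Psme2, the PA28 beta subunit, moved the other way: it had naive levels of 119.98 and 109.6 CPM, 1 h levels of 129 and 137 CPM and 3 h levels of 82.4 and 77.8 CPM, rose at 1 h (log2 fold change 0.32) and fell below naive at 3 h (log2 fold change -0.44 ± 0.09 (SE), adjusted p = 0.00361). Psme1, the PA28 alpha subunit, had naive levels of 162 and 158 CPM, 1 h levels of 187 and 219 CPM and 3 h levels of 153 and 152 CPM. It rose at 1 h (log2 fold change 0.45 ± 0.10 (SE), adjusted p = 0.00935) and fell back from 1 h to 3 h (log2 fold change -0.44), ending just under its naive values. Psmf1, which encodes the inhibitor PI31, had naive levels of 17.9 and 20.2 CPM, 1 h levels of 22.8 and 27.4 CPM and 3 h levels of 12.2 and 14.8 CPM (log2 fold change 0.50 ± 0.10 (SE), adjusted p = 0.00558 at 1 h; log2 fold change -0.42 ± 0.10 (SE), adjusted p = 0.00747 at 3 h against naive). It was highest in both 1 h libraries and lowest in both 3 h libraries. Psme3, which encodes the PA28 gamma activator of the nucleus, was not called.

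In the annotation used (GENCODE vM21 on GRCm38), Psme1 lies at chr14:55578123-55581529 on the forward strand and Psme2 close by at chr14:55587441-55591113 on the reverse strand. Psme4 lies at chr11:30771726-30880361, Psmf1 at chr2:151715812-151744186 on the reverse strand and Psmd12 at chr11:107479484-107504362; all are protein-coding genes. Psme2b, at chr11:48945354-48946190, is a copy of Psme2: 79.5% of the 25-base words of its 837-base transcript also occur in Psme2, and an exon of another gene on the same strand overlaps it. Its counts, with naive levels of 50.6 and 46.1 CPM, 1 h levels of 49.9 and 48.9 CPM and 3 h levels of 30.1 and 29.3 CPM, may therefore hold reads of either. Its change in microglia-like cells had the sign of the change of Psme2 at 3 h (log2 fold change -0.62 ± 0.09 (SE), adjusted p = 0.000393). An exon of another gene overlaps Psmd1 and Psmg3 on the same strand, and Psma4, Psmb7, Psmc3, Psmc3ip, Psmd1, Psmd13 and Psme1 on the opposite strand; the sources used here do not say whether counting used strand.

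Of the 7 assembly chaperones, 3 were called in microglia-like cells. Psmg2, a 20S chaperone, rose at 1 h (log2 fold change 0.36) and fell by 3 h (log2 fold change -0.60 ± 0.10 (SE), adjusted p = 0.00128 against 1 h). Its partner Psmg1 fell at 3 h against naive (log2 fold change -0.38 ± 0.11 (SE), adjusted p = 0.0164). Psmg4, another 20S chaperone, rose from 1 h to 3 h (log2 fold change 0.26), and Psmg3 and the 19S chaperones Psmd5, Psmd9 and Psmd10 were not called.

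**Figure D2:**
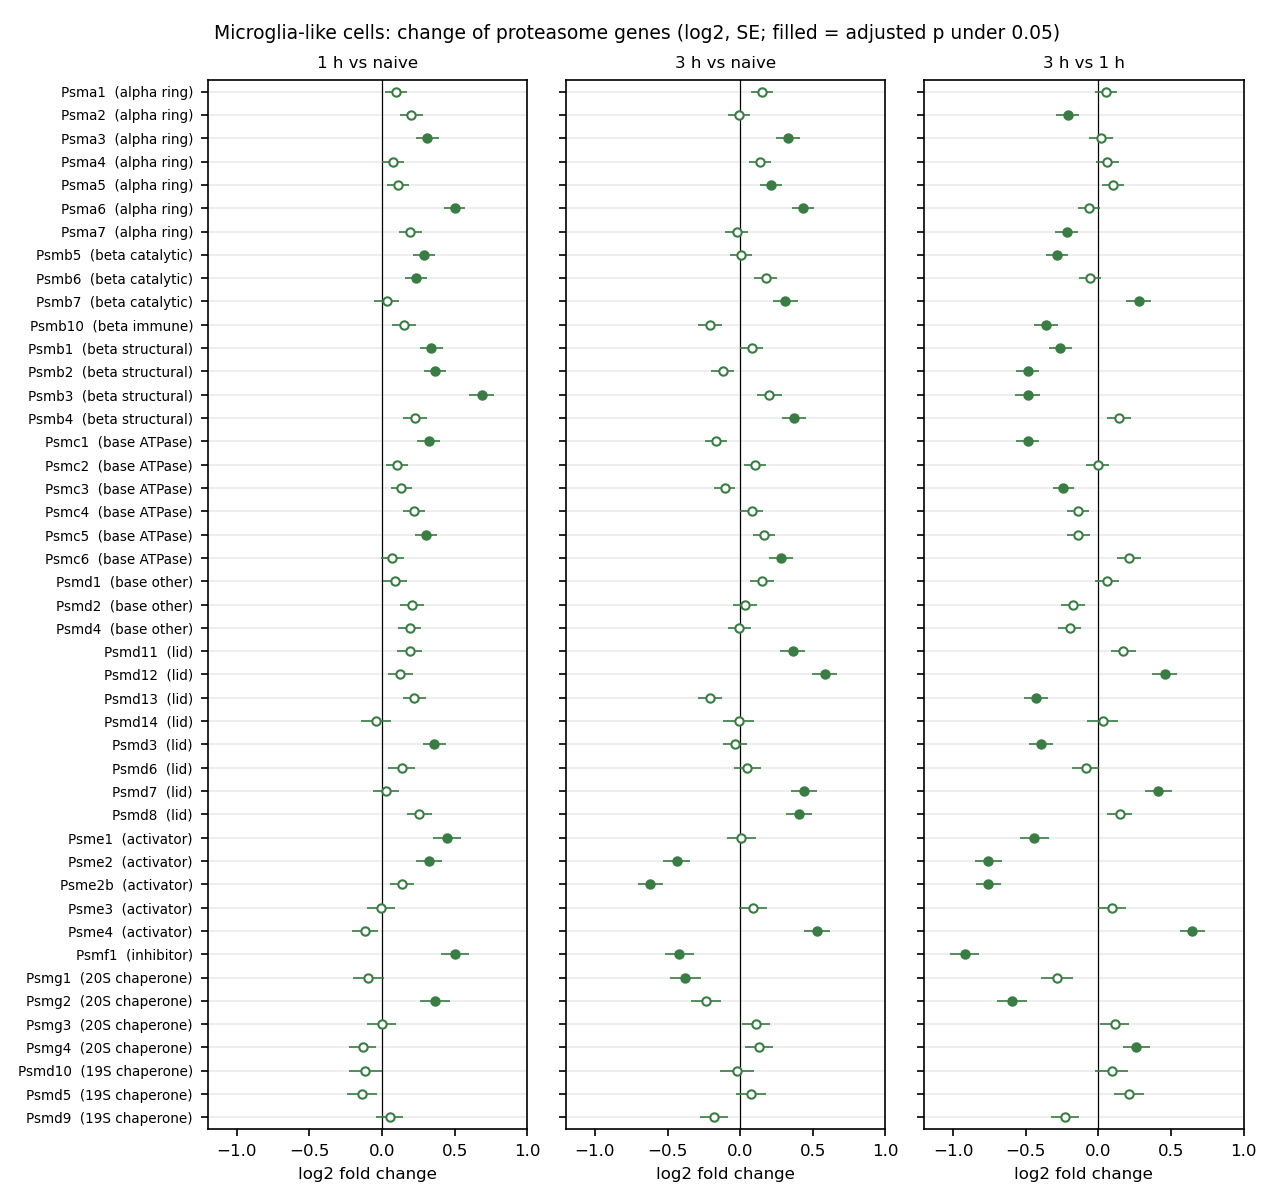
Change of 45 proteasome genes in microglia-like cells (x axis, log2 fold change; bars, SE), with genes grouped by role on the y axis, filled points for an adjusted p under 0.05 and 3 panels for 1 h against naive, 3 h against naive and 3 h against 1 h. At 1 h the filled points are all to the right, led by Psmb3 at 0.68; at 3 h against naive Psmd12 and Psme4 lie to the right and Psme2b, Psme2, Psmf1 and Psmg1 to the left.

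These microglial calls depended on scaling and on single pools. Scaled by library size alone, which moved the median of all genes to -0.12 at 1 h, 5 rose and 1 fell at 1 h; upper quartile scaling gave 13 and 0, and at 3 h against naive the 2 scalings gave 8 and 8, and 9 and 8. With 1 library left out, 2 genes were called at 1 h without the fl/fl naive, the Lyz2-cre naive or the Lyz2-cre 1 h library, 5 without the fl/fl 1 h library and 22 without the fl/fl 3 h library. At 3 h against naive 5 were called without the fl/fl naive and 9 without the fl/fl 3 h library, and at 3 h against 1 h 11 without the Lyz2-cre 1 h and 13 without the fl/fl 1 h library. The calls of Psma6 and Psmb3 at 1 h, and of Psma6, Psmd12, Psme4 and Psme2b at 3 h against naive, held under every alternative run.

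The clusters that made up the microglia-like class changed with time. Clusters 1 and 2 held 52.8% and 39.9% of it in the fl/fl naive library and 58.9% and 34.5% in the Lyz2-cre naive library, and under 0.4% each at 3 h. Clusters 0 and 4 held 31.6% and 32.2% of the fl/fl 1 h library and 46.1% and 23.1% of the Lyz2-cre 1 h library. At 1 h the 46 genes summed to 4482 and 4516 CPM in cluster 0 and to 3636 and 3638 CPM in cluster 4. In naive, clusters 1 and 2 summed to 3647 to 3752 CPM, and the few cells of cluster 0 to 4192 and 3968 CPM. The higher sum at 1 h was thus not shared by all clusters. At 3 h most cells lay in clusters 5, 6, 7, 8 and 20. Cluster 20, led by Hspa1a and other heat shock genes, held 19.2% and 24.99% at 3 h, and there the 46 genes summed to 2620 and 3085 CPM, against 3641 to 4257 CPM in clusters 5 to 8. The summed level of the Hspa1 genes over all microglia-like cells was 33.0 and 25.1 CPM in naive, 2569 and 1112 CPM at 1 h, then 12785 and 6880 CPM at 3 h, and all 10 microglial markers together gave 26806 and 27632, 32341 and 35771, and 17850 and 20522 CPM. Without cluster 20, an alternative chosen after seeing the data, 16 genes rose and 5 fell at 3 h against naive, and 17 rose at 1 h. Of all 12706 genes tested in that run, 3162 were called higher and 3039 lower at 3 h. At 1 h they were 1878 and 1383. The part of these clusters or of heat shock genes in the results was not tested.

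In monocyte-like cells, blood-derived cells that enter the brain after injury, the 1 h libraries gave no call: edgeR called 0 of the 45 genes tested (7 had an unadjusted p under 0.05), DESeq2 also 0, and of all 8953 genes 1.08% were called higher and 0.782% lower. Without the fl/fl 1 h library 2 were called. At 3 h, 15 genes rose against naive and 1 fell, where 14.3% of all genes were called higher and 13.1% lower. The median of the 45 was 0.33, against -0.02 for all genes. The risers were 5 of the 6 base ATPases, 4 of the 7 alpha subunits, the lid subunits Psmd6, Psmd7 and Psmd12, the beta subunits Psmb4 and Psmb7 and the chaperone Psmg4. Psma6 had naive levels of 111 and 128 CPM, 1 h levels of 163 and 155 CPM and 3 h levels of 187 and 196 CPM (log2 fold change 0.86 ± 0.14 (SE), adjusted p = 0.00109). Both 3 h libraries lay above the others, and both naive libraries below.

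Psmc1, a base ATPase, had naive levels of 46.4 and 44.3 CPM, 1 h levels of 56.1 and 66.5 CPM and 3 h levels of 65.9 and 70.7 CPM in monocyte-like cells (log2 fold change 0.81 ± 0.18 (SE), adjusted p = 0.00622 against naive), although the Lyz2-cre 1 h value lay within the range at 3 h. Psmc6, another base ATPase, had naive levels of 75.2 and 71.4 CPM, 1 h levels of 80.1 and 84.2 CPM and 3 h levels of 108 and 107 CPM (log2 fold change 0.76 ± 0.15 (SE), adjusted p = 0.00345), with both 3 h libraries on top. The lid subunit Psmd6 had naive levels of 88.9 and 70.8 CPM, 1 h levels of 92.6 and 88.7 CPM and 3 h levels of 108 and 115 CPM (log2 fold change 0.71 ± 0.16 (SE), adjusted p = 0.00722). In these 2 genes the 3 h libraries did not overlap any other. Psmd12 had naive levels of 80.2 and 62.0 CPM, 1 h levels of 71.2 and 77.1 CPM and 3 h levels of 101 and 92.5 CPM (log2 fold change 0.67 ± 0.17 (SE), adjusted p = 0.0123), again with 3 h highest. The remaining risers Psma5, Psmc4, Psma4, Psmc2, Psmc5, Psmb4, Psmg4, Psmb7, Psmd7 and Psma2 had log2 fold changes between 0.42 (Psma2) and 0.63 (Psma5).

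The genes called higher at 3 h in both microglia-like and monocyte-like cells were Psma5, Psma6, Psmb4, Psmb7, Psmc6, Psmd7 and Psmd12. Of these only Psma6 kept its call in both classes under every alternative run. Whether the lists overlap more than those of all genes was not tested. Among the catalytic subunits of monocyte-like cells, Psmb7 rose and had naive levels of 75.2 and 82.5 CPM, 1 h levels of 65.9 and 82.6 CPM and 3 h levels of 92.2 and 98.2 CPM. Psmb5 had naive levels of 218 and 203 CPM, 1 h levels of 215 and 274 CPM and 3 h levels of 232 and 247 CPM. Psmb6 had naive levels of 140.3 and 164 CPM, 1 h levels of 159 and 174 CPM and 3 h levels of 158 and 171 CPM. Neither was called in any comparison, and the highest library of both was the Lyz2-cre 1 h one. Psmb10, the inducible subunit, had naive levels of 199 and 182 CPM, 1 h levels of 158 and 213 CPM and 3 h levels of 208 and 219.9 CPM. The lid deubiquitinase Psmd14 had naive levels of 57.6 and 74.7 CPM, 1 h levels of 55.2 and 59.5 CPM and 3 h levels of 62.6 and 65.4 CPM. Neither was called, and in both the naive and 1 h libraries overlapped.

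The PA28 genes of monocyte-like cells were lowest at 3 h. Psme1 had naive levels of 388 and 389.6 CPM, 1 h levels of 358 and 464 CPM and 3 h levels of 304 and 314 CPM, without a call. Psme2 had naive levels of 375 and 269 CPM, 1 h levels of 303 and 347 CPM and 3 h levels of 201 and 205 CPM and fell from 1 h to 3 h (log2 fold change -0.56 ± 0.17 (SE), adjusted p = 0.0389). Both 3 h libraries lay below the 4 earlier ones in both genes. Psme2b, whose reads may belong to Psme2, had naive levels of 58.9 and 55.9 CPM, 1 h levels of 32.9 and 49.9 CPM and 3 h levels of 20.4 and 19.5 CPM (log2 fold change -1.31 ± 0.21 (SE), adjusted p = 0.00122 against naive). Psmf1 also fell from 1 h to 3 h (log2 fold change -0.74). From 1 h to 3 h 5 genes rose (Psmb4, Psmb7, Psmc6, Psmd10 and Psmg4) and 3 fell, with 10.8% of all genes called higher and 8.91% lower and medians of 0.22 for the members and -0.01 for all genes.

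Fewer genes were called in monocyte-like cells under several other settings. Library-size scaling moved the median change of all genes in that class to -0.22 at 3 h against naive and -0.13 at 3 h against 1 h. At 3 h against naive library-size scaling gave 5 higher and 3 lower and upper quartile scaling 8 and 2, and from 1 h to 3 h they gave 0 and 3, and 1 and 3. DESeq2 called 3 at 3 h against naive (2 higher), and leaving out a library left 4 (without the Lyz2-cre naive or the Lyz2-cre 3 h library), 5 (without the fl/fl 3 h library) or 10 (without the fl/fl naive library). From 1 h to 3 h it left 2 without the Lyz2-cre 1 h, 5 without the fl/fl 1 h, 1 without the fl/fl 3 h and 0 without the Lyz2-cre 3 h library. Psma6, Psmc6 and Psme2b held their calls against naive under every alternative run; Psmc1 and Psmd6 lost theirs with DESeq2 and without the Lyz2-cre naive or the Lyz2-cre 3 h library. Psmd12 lost its own with DESeq2, library-size scaling and without the Lyz2-cre naive library or either library of 3 h, and in cluster 16 alone both Psmc1 and Psmd12 lost theirs. Cluster 16, with F13a1 among its leading genes, made up 48.6% and 36.8% of the class in naive, 48.6% and 48.9% at 1 h and 80.7% and 83.3% at 3 h. Its proteasome genes had naive sums of 6243 and 6372 CPM, 1 h sums of 6104 and 7656 CPM and 3 h sums of 6187 and 6377 CPM. In cluster 19, the other monocyte-like cluster, the naive sums were 5144 and 5126 CPM, the 1 h sums 4923 and 5079 CPM and the 3 h sums 4419 and 4631 CPM. Within cluster 16 the naive and 3 h sums overlapped, and within cluster 19 both 3 h sums were the lowest. In cluster 16 alone, an alternative chosen after seeing the data, 4 of 45 genes rose and 1 fell at 3 h against naive. Of all 7962 genes tested there, 760 were called higher and 761 lower, so the share of members called higher was near that of all genes. The members' median change was 0.24 and that of all genes -0.02. Microglial markers summed to 2170 and 1265 CPM in the naive monocyte-like sums, 1545 and 1667 CPM at 1 h, then 412 and 381 CPM at 3 h (all 10 detected). Neutrophil markers summed there to 173 and 208 CPM in naive, 141 and 922 CPM at 1 h, then 2777 and 1180 CPM at 3 h; the part of either was not tested.

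In neutrophil-like cells, the first granulocytes to reach injured tissue, no gene of the family was called higher at any time. At 1 h edgeR called 0 of the 43 genes tested (2 had an unadjusted p under 0.05) and DESeq2 called 0, with 0.962% of all 7694 genes called higher and 0.0260% lower. At 3 h, 6 genes fell against naive, with 17.9% of all genes called higher and 11.6% lower, and 13 fell against 1 h, with 15.4% and 11.1%. The median change of the 43 was -0.43 against naive and -0.52 against 1 h, and that of all genes -0.06 in both. The share of members called lower against naive, 6 of 43, was near that of all genes. The 6 were the ATPase Psmc2, the base subunit Psmd1, the lid subunit Psmd6, the catalytic Psmb6, the structural Psmb3 and the activator Psme3.

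Psmd1, the base subunit that docks ubiquitin-binding partners, had naive levels of 23.8 and 20.4 CPM, 1 h levels of 12.7 and 17.9 CPM and 3 h levels of 5.02 and 6.94 CPM in neutrophil-like cells (log2 fold change -1.55 ± 0.39 (SE), adjusted p = 0.0113 against naive). The 3 h libraries lay below all others, at 17 and 19 UMIs. Psmc2 had naive levels of 42.8 and 42.0 CPM, 1 h levels of 46.5 and 36.5 CPM and 3 h levels of 14.2 and 15.3 CPM (log2 fold change -1.24 ± 0.28 (SE), adjusted p = 0.00661), also lowest in both 3 h libraries. Psmb3 had naive levels of 179 and 166 CPM, 1 h levels of 176 and 186 CPM and 3 h levels of 73.3 and 78.9 CPM (log2 fold change -0.88 ± 0.23 (SE), adjusted p = 0.0138 against naive; log2 fold change -1.11 ± 0.23 (SE), adjusted p = 0.0046 against 1 h). The 4 earlier libraries of Psmb3 were close together, and both 3 h libraries were at under 80 CPM. Psmb6 had naive levels of 53.9 and 63.0 CPM, 1 h levels of 52.9 and 53.5 CPM and 3 h levels of 22.7 and 29.96 CPM (log2 fold change -0.87 ± 0.26 (SE), adjusted p = 0.0247). Psme3, the PA28 gamma gene, had naive levels of 25.4 and 20.4 CPM, 1 h levels of 14.8 and 14.3 CPM and 3 h levels of 7.39 and 9.13 CPM (log2 fold change -1.15 ± 0.35 (SE), adjusted p = 0.0294). In both genes the 3 h libraries lay below all others, though for Psme3 those of 1 h were already nearer to them. Psmd6 had naive levels of 38.1 and 29.6 CPM, 1 h levels of 28.6 and 31.0 CPM and 3 h levels of 15.1 and 13.5 CPM and fell too (log2 fold change -0.91 ± 0.32 (SE), adjusted p = 0.0482).

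Against 1 h, Psmc2, Psmd1, Psmd6, Psmb3 and Psmb6 fell too, and they were joined by the base subunits Psmc1, Psmc5 and Psmd2, the lid subunit Psmd13, the alpha subunits Psma2 and Psma7, the structural Psmb2 and the inhibitor gene Psmf1. The 2 comparisons share the 3 h libraries. Psmf1 had the largest change, -2.03 on the log2 scale, from few counts: it had naive levels of 9.52 and 4.32 CPM, 1 h levels of 9.52 and 8.84 CPM and 3 h levels of 3.25 and 1.10 CPM, which at 3 h stood for 11 and 3 UMIs. Not all genes were lower. The ATPase Psmc6 had naive levels of 46.01 and 37.7 CPM, 1 h levels of 43.4 and 43.7 CPM and 3 h levels of 46.4 and 48.6 CPM. The ubiquitin receptor Psmd4 had naive levels of 79.3 and 86.5 CPM, 1 h levels of 100.5 and 75.5 CPM and 3 h levels of 85.7 and 92.1 CPM. Neither was called; both were chosen after their values were seen. The trypsin-like Psmb7 had naive levels of 42.8 and 35.2 CPM, 1 h levels of 30.7 and 35.1 CPM and 3 h levels of 35.5 and 43.8 CPM. The chymotrypsin-like Psmb5 had naive levels of 93.6 and 84.0 CPM, 1 h levels of 100.5 and 95.2 CPM and 3 h levels of 60.3 and 59.9 CPM. For Psmb7 the naive and 3 h libraries overlapped and both 1 h libraries were lowest, while for Psmb5 both 3 h libraries were lowest without a call. The inducible Psmb10 had naive levels of 47.6 and 20.4 CPM, 1 h levels of 24.3 and 19.5 CPM and 3 h levels of 12.4 and 13.5 CPM. The deubiquitinase Psmd14 had naive levels of 28.6 and 23.5 CPM, 1 h levels of 12.7 and 25.4 CPM and 3 h levels of 12.4 and 12.4 CPM. In both genes the 3 h libraries were lowest, and neither was called. The PA28 gene Psme1 had naive levels of 133 and 119 CPM, 1 h levels of 126 and 149 CPM and 3 h levels of 88.3 and 92.4 CPM. Its partner Psme2 had naive levels of 130.1 and 104 CPM, 1 h levels of 112 and 109 CPM and 3 h levels of 70.3 and 53.3 CPM. Again both 3 h libraries were the lowest, without a call.

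The makeup of the neutrophil-like class changed with time. Cluster 13 held 89.0% and 91.1% of it at 3 h and at most 6.25% before, while cluster 11, with Ltf and Ngp among its leading genes, went from 37.3% and 49.7% in naive, and 13.4% and 46.7% at 1 h, to 2.84% and 2.91%. The small part of cluster 12 at 3 h, 86 and 60 cells, had a summed level of 1852 and 1857 CPM, against 2360 and 2350 CPM for the same cluster in naive and 2246 and 2084 CPM at 1 h. Cluster 13 summed to 1305 and 1473 CPM at 3 h. In cluster 11 at 3 h, with 30 and 29 cells, the proteasome genes held 682 of 289433 and 499 of 218921 UMIs. There they held 838 of 366318 and 2586 of 1175458 UMIs in naive, and 733 of 298887 and 6988 of 3122516 UMIs at 1 h. Their share in cluster 11 at 3 h was thus not below naive in either genotype, unlike in cluster 12, though cells were few. The 10 neutrophil markers took 302345 and 378722 CPM of the class in naive, 245728 and 379126 CPM at 1 h, then 199290 and 175368 CPM at 3 h, and microglial markers 2450 and 800.4 CPM in naive, 2918 and 1555 CPM at 1 h, then 302 and 488 CPM at 3 h; the part of either was not tested.

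**Figure D3:**
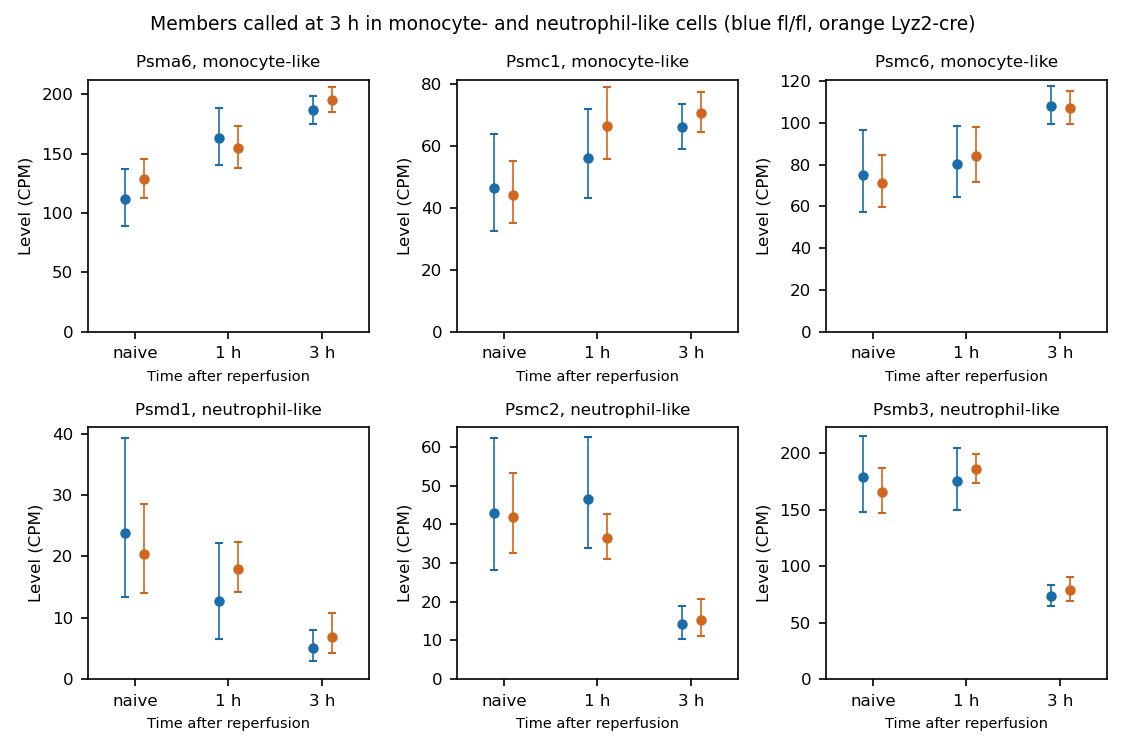
Levels (y axis, CPM; bars, exact 95% Poisson intervals) by time for 3 genes in monocyte-like cells (top) and 3 in neutrophil-like cells (bottom), blue for fl/fl and orange for Lyz2-cre. In monocyte-like cells Psma6 runs from 111 and 128 CPM in naive to 187 and 196 CPM at 3 h; in neutrophil-like cells Psmb3 falls from 179 and 166 CPM to 73.3 and 78.9 CPM.

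The direction in neutrophil-like cells stayed the same under other scalings, which called more genes lower. Library size alone gave 13 and upper quartile scaling 17 at 3 h against naive, with the median of all genes at -0.34 and -0.38. More of all 7694 genes were then called lower too, 1121 and 1540, against 895 with the scaling used elsewhere. DESeq2 called 2, and the count against naive was 0 without the fl/fl naive, 2 without the Lyz2-cre naive, 3 without the Lyz2-cre 3 h, 12 without the fl/fl 1 h and 13 without the Lyz2-cre 1 h library. Against 1 h it was 3 without the Lyz2-cre library of 1 h or of 3 h and 6 without either naive library. Without cluster 11, an alternative chosen after seeing the data, 4 genes fell against naive and 4 against 1 h. Of all genes, 353 of 6072 were called lower against naive in that run, and 397 of 7694 with DESeq2. Only Psmb3 and Psmc2, against 1 h, held their calls under every alternative run. Against naive, Psmd1 lost its call with DESeq2, the stricter cell filter, doublets kept and without the fl/fl naive library, Psmc2 with doublets kept and without either naive library, and Psmb3 without either naive or the Lyz2-cre 3 h library. Psmb6 lost its call against naive under 7 alternatives, and Psmd6 and Psme3 theirs under 8 each. For all of these the losses included DESeq2, the stricter cell filter, the run without cluster 11 and those without either naive library.

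In lymphocyte-like cells 2 genes rose and 1 fell at 1 h of 46 tested, with 7.28% of all 9555 genes called higher and 5.81% lower; the members' median was 0.06 and that of all genes -0.01. The inhibitor gene Psmf1 had naive levels of 28.5 and 18.7 CPM, 1 h levels of 40.4 and 39.2 CPM and 3 h levels of 17.5 and 20.6 CPM (log2 fold change 0.89 ± 0.22 (SE), adjusted p = 0.0115 at 1 h; log2 fold change -1.10 ± 0.25 (SE), adjusted p = 0.0112 from 1 h to 3 h). The 1 h libraries were the highest pair, as in microglia-like cells. The lid subunit Psmd8 rose at 1 h (log2 fold change 0.46). Psmb10 had naive levels of 230.3 and 199.9 CPM, 1 h levels of 139 and 145 CPM and 3 h levels of 139 and 153 CPM (log2 fold change -0.45 ± 0.13 (SE), adjusted p = 0.0269 at 1 h; log2 fold change -0.44 ± 0.13 (SE), adjusted p = 0.0298 at 3 h against naive). Both naive libraries lay above the other 4.

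At 3 h against naive, 3 genes fell in lymphocyte-like cells and none rose, with 7.92% of all genes called higher and 6.49% lower, and 5 fell against 1 h, with 5.75% and 5.66%. Against naive, the share of members called lower was near that of all genes. The members' medians were 0.05 and -0.02, and those of all genes -0.01 and -0.0016. Psme2 had naive levels of 329.99 and 252 CPM, 1 h levels of 216 and 245 CPM and 3 h levels of 181 and 145 CPM (log2 fold change -0.72 ± 0.15 (SE), adjusted p = 0.00502 against naive), with both 3 h libraries lowest. Psme1 had naive levels of 432 and 375 CPM, 1 h levels of 384 and 430.4 CPM and 3 h levels of 309 and 281 CPM and fell from 1 h to 3 h (log2 fold change -0.50). Psme2b fell too, by 0.74 against naive and by 1.06 against 1 h on the log2 scale, and Psmb3 fell against 1 h (-0.41). The catalytic subunits were not called. Psmb5 had naive levels of 176 and 169 CPM, 1 h levels of 166 and 159 CPM and 3 h levels of 175 and 171 CPM. Psmb6 had naive levels of 171 and 150.03 CPM, 1 h levels of 144 and 149 CPM and 3 h levels of 122 and 159 CPM. Psmb7 had naive levels of 60.8 and 56.4 CPM, 1 h levels of 55.9 and 58.8 CPM and 3 h levels of 70.8 and 62.4 CPM. Neither was the lid deubiquitinase Psmd14 called, which had naive levels of 77.2 and 73.9 CPM, 1 h levels of 63.3 and 63.8 CPM and 3 h levels of 52.6 and 74.3 CPM. Naive and 3 h libraries overlapped in Psmb5, Psmb6 and Psmd14, while both 3 h libraries of Psmb7 were above the rest.

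The lymphocyte-like makeup also differed between libraries: T cell-like cells were 74.5% and 48.2% of it in naive, 46.5% and 19.5% at 1 h and 46.3% and 31.0% at 3 h, and B cell-like cells reached 61.6% in the Lyz2-cre 1 h library. That library held erythroid markers at 9220 CPM, against 43.5 to 70.1 CPM in the others. In T cell-like clusters alone no gene was called at 1 h, at 3 h against naive or at 3 h against 1 h, and DESeq2 called 0, 1 and 0 in the whole class. Scaled by library size, which put the median of all genes at -0.15 at 1 h and -0.13 at 3 h against naive, 1 rose and 2 fell at 1 h, 5 fell at 3 h against naive, and 1 rose and 5 fell from 1 h to 3 h. At 1 h 1 call was left without the Lyz2-cre 1 h or the fl/fl naive library and 0 without the Lyz2-cre naive library; at 3 h against naive 1 was left without the Lyz2-cre naive or the Lyz2-cre 3 h library and 0 without the fl/fl naive library; from 1 h to 3 h 0 were left without the Lyz2-cre 1 h, 1 without the Lyz2-cre 3 h, 2 without either naive and 3 without the fl/fl 3 h library.

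**Figure D4:**
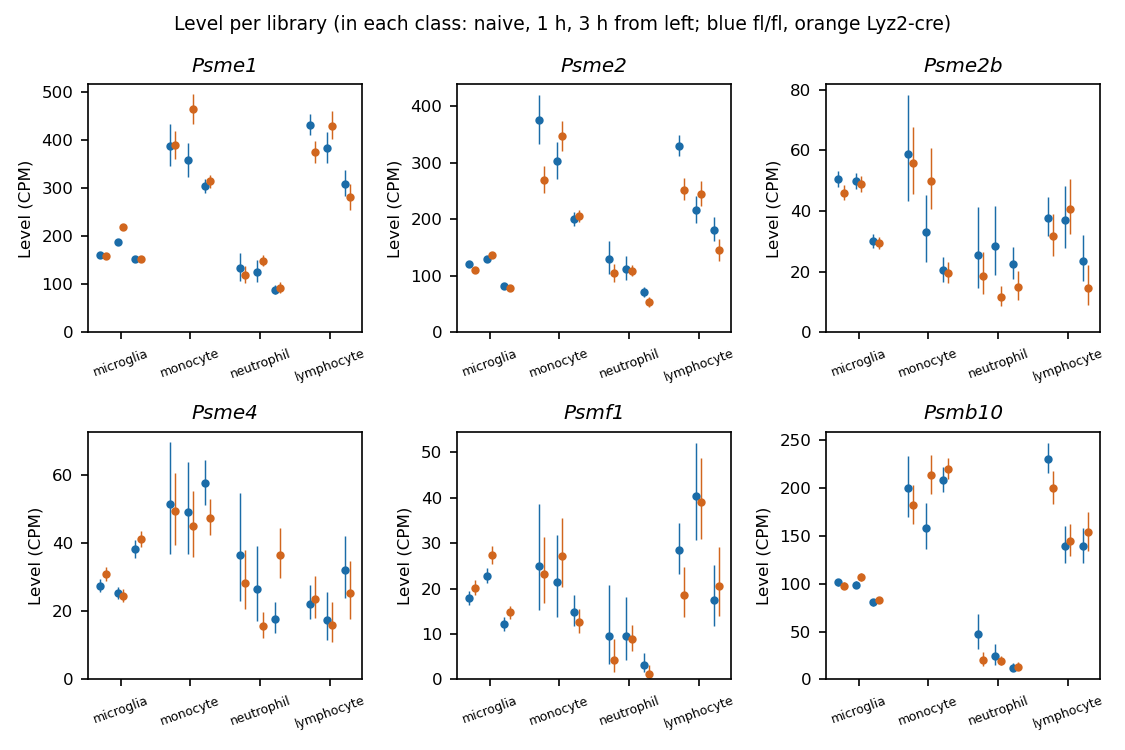
Levels per library (y axis, CPM; bars, exact 95% Poisson intervals) of the activator genes Psme1, Psme2, Psme2b and Psme4, the inhibitor gene Psmf1 and the inducible subunit gene Psmb10 in the 4 classes (x axis), with naive, 1 h and 3 h from left to right in each class. Psme2 is lowest at 3 h in every class, and Psme4 rises in microglia-like cells to 38.3 and 41.3 CPM.

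Whether the change from naive to 3 h differed between classes was tested with a class by time term over all 24 sums, with a term for each library. Against microglia-like cells, 4 of 46 genes changed more upward in monocyte-like cells and none more downward, with 5.42% of 10795 genes called upward and 7.18% downward. The values here are differences between 2 log2 fold changes. The genes were Psmc1 (difference 1.06 ± 0.23 (SE), adjusted p = 0.00379), Psmd6 (0.74), Psmb10 (0.67) and Psmd13 (0.64). In neutrophil-like cells 8 changed more downward and none more upward, with 6.53% of all genes called downward and 13.1% upward: Psmd1 (difference -1.58 ± 0.33 (SE), adjusted p = 0.00122), Psmc2 (difference -1.17 ± 0.23 (SE), adjusted p = 0.000771), Psme3, Psmb6, Psmb3, Psmd2, Psmd6 and Psmc5, the last 6 at -1.08 to -0.78. For lymphocyte-like against microglia-like cells edgeR called 0 (1 had an unadjusted p under 0.05) and DESeq2 0, with 1.95% of all genes called higher and 3.44% lower. Psmd6 was called in both, upward in monocyte-like and downward in neutrophil-like cells. The medians of the 46 were 0.33, -0.40 and -0.02, and those of all genes 0.04, -0.01 and 0.01. Without the Lyz2-cre naive library no gene was called in either comparison. For monocyte-like cells 1 was left without the fl/fl naive library and 1 without either library of 3 h. For neutrophil-like cells 3 were left without the fl/fl 3 h library and 4 without the Lyz2-cre one of that time.

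**Figure D5:**
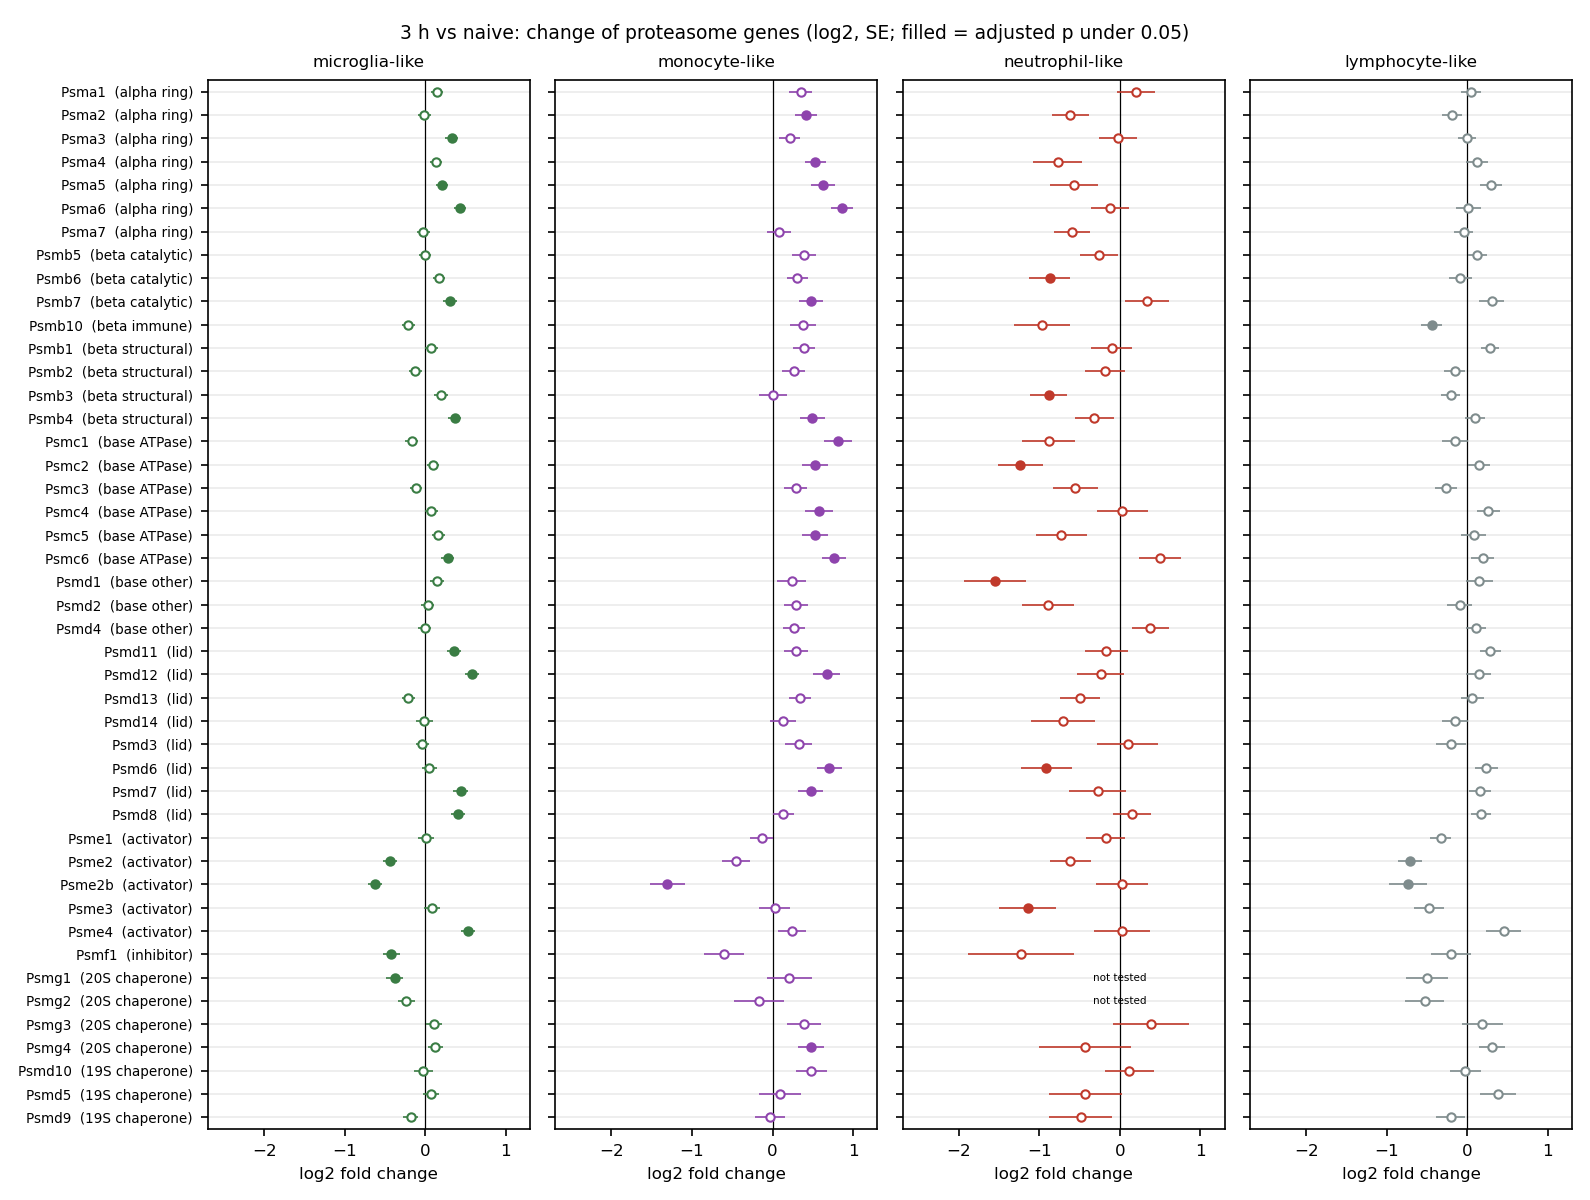
Change of 45 proteasome genes from naive to 3 h (x axis, log2 fold change; bars, SE) in the 4 classes, grouped by role on the y axis, with filled points for an adjusted p under 0.05. Filled points lie to the right in monocyte-like cells apart from Psme2b at -1.31, and to the left in neutrophil-like cells, led by Psmd1 at -1.55.

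Genotype was called for no gene of the family. In the comparison of the 3 Lyz2-cre with the 3 fl/fl libraries, edgeR called 0 of 47 genes in microglia-like, 0 of 45 in monocyte-like, 0 of 43 in neutrophil-like and 0 of 46 in lymphocyte-like cells, and DESeq2 called 0 in each. Unadjusted p-values were under 0.05 for Psmd12, Psmg2 and Psmf1 in microglia-like cells, Psmb4 in monocyte-like cells, Psme2b in neutrophil-like cells and 0 genes in lymphocyte-like cells. Of all genes tested, 0.0468% were called higher and 0.422% lower in microglia-like, 0.0112% and 0.0447% in monocyte-like, 0% and 0.0260% in neutrophil-like and 1.33% and 1.07% in lymphocyte-like cells. The members' medians were -0.01, 0.08, 0.17 and -0.06 on the log2 scale, against medians of all genes of 0.00, 0.01, 0.00 and -0.0023. With library size alone the median of all genes in neutrophil-like cells was -0.13, and there was still no member called.

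Genes that act with the proteasome were read from a list of ubiquitin genes, shuttles, bound enzymes and regulators, of which 35 were in the files and 34 were tested in microglia-like cells. At 1 h 8 rose and 1 fell, with 14.0% of all genes called higher and 12.8% lower. At 3 h against naive 16 rose and 4 fell (all genes, 24.4% and 23.2%). From 1 h to 3 h 10 rose and 7 fell (all genes, 25.3% and 22.1%). In monocyte-like cells 6 of 34 tested rose and 2 fell at 3 h against naive (all genes, 14.3% and 13.1%). For the same times 5 of 31 rose and 3 fell in neutrophil-like cells (all genes, 17.9% and 11.6%). In lymphocyte-like cells 4 of 34 rose and 2 fell (all genes, 7.92% and 6.49%). The largest changes at 3 h were those of Zfand2a and Zfand5, whose stress-linked zinc-finger products bind the 26S particle. Zfand5 had naive levels of 319.6 and 316 CPM, 1 h levels of 343 and 274 CPM and 3 h levels of 967 and 855 CPM (log2 fold change 1.60 ± 0.09 (SE), adjusted p = 2.62e-06). Zfand2a had naive levels of 10.6 and 9.28 CPM, 1 h levels of 16.5 and 11.4 CPM and 3 h levels of 58.5 and 35.8 CPM (log2 fold change 2.29 ± 0.13 (SE), adjusted p = 4.33e-06). In both genes the 3 h libraries stood far above the rest, with no overlap.

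Among the other genes of that list in microglia-like cells, Uba6, an enzyme that activates ubiquitin, rose at 3 h (log2 fold change 0.82 ± 0.11 (SE), adjusted p = 0.000273), and the autophagy receptor Sqstm1 had naive levels of 113 and 103 CPM, 1 h levels of 143 and 123 CPM and 3 h levels of 199.9 and 142 CPM (log2 fold change 0.73 ± 0.11 (SE), adjusted p = 0.000702). Nfe2l1, which encodes NRF1, had naive levels of 37.7 and 41.8 CPM, 1 h levels of 33.3 and 35.0 CPM and 3 h levels of 48.2 and 50.5 CPM (log2 fold change 0.51 ± 0.08 (SE), adjusted p = 0.00104 from 1 h to 3 h). Under every alternative run Zfand5, Zfand2a, Uba6 and Sqstm1 held their calls at 3 h against naive, and Nfe2l1 its call from 1 h to 3 h.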

How the data were processed

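Single-cell 3′ libraries of CD45+ brain cells were read as the gene by barcode matrices deposited by the authors, which hold whole-number UMI counts, not normalized. They were made with Cell Ranger 3.0.2 on mm10, per the submitters' processing notes. Members and gene lists were chosen with earlier results of these data known.

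Of 51005 barcodes, the 50634 with 300 or more genes and no more than 10% mitochondrial UMIs were used. Scrublet's own threshold marked 433 doublets, 419 of them in 1 library, so the cells with the highest doublet scores were removed instead, at 0.8% per 1000 barcodes, 3557 in all. Cells were clustered with scanpy 1.11.5 (2050 variable genes, with no proteasome gene among them, 30 principal components, 15 neighbours, Leiden resolution 1) into 21 clusters, named from marker lists. UMIs were summed per library and class. A border-associated macrophage cluster and 1 cluster without a name entered no class.

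Sums were tested with edgeR 4.0.16 (filterByExpr, TMM, robust quasi-likelihood F test, R 4.3.3) on time and genotype over 6 libraries, which leaves 2 residual degrees of freedom, with a prior of 7.79 to 13.8 estimated across genes. The class by time model over 24 sums leaves 9. Adjustment was by Benjamini and Hochberg over all genes of a fit, at 0.05. The SE was taken as the size of the log2 fold change over the square root of its F. DESeq2 1.42.0 was an alternative. Sums are not separate animals, and intervals cover counting error only.

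The members past the threshold are named in each comparison, by rule at most the 12 with the largest change; where more are named they were added after their values were seen. Psmb5, Psmb6, Psmb7, Psmb10, Psmd14, Psme1 and Psme2 are given in any case. In microglia-like cells at most 8 genes of the partner list are named, those with the largest changes among the called; some of these and 1 promoter motif are not reported here. The scripts were tested on simulated data. In counts simulated for 3 h against naive, 0% of neutrophil-like genes raised by log2 0.5 were called and 15% of those raised by 1. The shares were 15.4% and 65% in monocyte-like, 5% and 66.7% in lymphocyte-like and 55% and 75% in microglia-like cells. A gene without a call can therefore still have changed.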

Additional observations from a re-analysis of the deposited data

Results flagged for a closer look

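For 12 results the change from naive to 3 h differed between classes by the class by time term of edgeR's quasi-likelihood test. In monocyte-like against microglia-like cells the difference in log2 fold change was 1.06 for Psmc1, 0.74 for Psmd6, 0.67 for Psmb10 and 0.64 for Psmd13. Psmc1 was 46.4 and 44.3 CPM in naive and 65.9 and 70.7 CPM at 3 h in monocyte-like cells, and 56.3 and 57.8 against 46.8 and 49.3 CPM in microglia-like cells, so both pairs of libraries moved apart in opposite directions. In neutrophil-like against microglia-like cells it was -1.58 for Psmd1, -1.17 for Psmc2, -1.08 for Psme3, -0.92 for Psmb6, -0.91 for Psmb3, -0.85 for Psmd2, -0.80 for Psmd6 and -0.78 for Psmc5. These comparisons share the microglia-like sums.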

How the results depend on the processing

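Counts give called members. Library-size scaling gave 6 in microglia-like cells at 1 h; in monocyte-like cells 8 at 3 h against naive and 3 against 1 h; in neutrophil-like cells 13 against naive; in lymphocyte-like cells 5 against naive; and 1 and 20 for monocyte-like and neutrophil-like against microglia-like cells. Upper quartile scaling gave 10 and 4 in monocyte-like cells (against naive and 1 h), 17 in neutrophil-like cells against naive and 17 for neutrophil-like against microglia-like cells. DESeq2 gave 3 and 0 in monocyte-like, 2 and 2 in neutrophil-like and 1 and 0 in lymphocyte-like cells at 3 h, 0 in lymphocyte-like cells at 1 h, and 7 for monocyte-like against microglia-like cells. Without a filter on low counts, 13 and 6 were called at 3 h against 1 h in monocyte-like and neutrophil-like cells. The stricter cell filter gave 3 in monocyte-like cells (3 h against 1 h), 2 and 8 in neutrophil-like cells, 1 at 1 h and 2 at 3 h against 1 h in lymphocyte-like cells, and 2 and 2 for monocyte-like and neutrophil-like against microglia-like cells. In lymphocyte-like cells the model without genotype gave 0, 1 and 1, and T cell-like clusters alone 0, 0 and 0. Chosen after seeing the data, cluster 16 alone gave 5 and 2 in monocyte-like cells, and leaving out cluster 11 gave 4 in neutrophil-like cells at 3 h against 1 h. The cause of these shifts was not tested.

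Leaving out 1 library gave 2 to 22, 5 to 16 and 11 to 22 calls in microglia-like cells (1 h against naive, 3 h against naive, 3 h against 1 h), 0 to 2, 4 to 20 and 0 to 12 in monocyte-like, 0 to 0, 0 to 13 and 3 to 15 in neutrophil-like and 0 to 3, 0 to 4 and 0 to 6 in lymphocyte-like cells, and 0 to 5, 0 to 9 and 0 to 0 for monocyte-like, neutrophil-like and lymphocyte-like against microglia-like cells. Genotype had 0 calls in each. Of 140 called results of single genes, 34 kept the call under every alternative run, 61 kept it under every one but leaving out a library, and 0 changed direction. Summed levels moved beyond their counting interval in 18 of 24 sums as a mean over cells, in 12 with doublets kept and in 13 with the stricter cell filter. No paired analysis was possible because the labels give no replicate numbers and each group has 1 library. A library left out leaves its time with 1 pool, assumed to vary like the others. The fl/fl naive library had the fewest UMIs of its class in monocyte-like (798235) and neutrophil-like cells (630260), which limits the precision there.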
